A study of Mus musculus with 48 samples.

Results

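Prenatally stressed (PS) female offspring that were socially affected (SA) were compared with PS females that were socially unaffected (SU), in the libraries labelled 5-Htt+/+. The comparison holds 16 of the 48 hippocampal RNA libraries of the series, 8 SA and 8 SU, chosen by their labels alone (susceptible and resilient, respectively). All animals were females aged 3 months of the strain labelled C57BL/6 (C57BL6/J in the methods of the study), and the dams of the PS animals were restrained repeatedly each day between embryonic days 13 and 17. SA and SU were separated by the time each animal spent near a social target in the 3-chamber sociability test, so the groups share the same prenatal treatment and differ in a behaviour measured later. The 8 5-Htt+/+ control libraries (C), from undisturbed dams, are given as background, and the 8 SA and 9 SU libraries labelled 5-Htt+/- are set beside the result where the genotypes were compared. The hippocampi of both hemispheres of an animal were pooled and powdered before RNA extraction, and the litter of an animal was not analysed here. Animals of 1 litter may therefore stand in either group, and the p-values measure the spread between these samples only.

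The hippocampus lies against the lateral ventricle. The choroid plexus, a secretory epithelium that makes cerebrospinal fluid, hangs in that ventricle and can be carried along when the hippocampus is dissected. Its epithelial cells express transthyretin (Ttr), a carrier of thyroid hormone and retinol, at very high levels, so Ttr serves as a gauge of choroid plexus in hippocampal RNA. The ventricle wall is lined by ependymal cells, which carry bundles of motile cilia. Motile cilia beat by means of axonemal dyneins held in register by docking and regulatory complexes, and their genes are commonly switched on together through X-box elements, which RFX transcription factors bind.

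Levels are given in CPM, read counts relative to the scaled library size, and fold changes as log2 values from the fitted model, SA minus SU. Total counts ranged from 16547182 to 26171624 in SA and from 16594116 to 34810835 in SU. The share of counts from the mitochondrial genome was 5.12% ± 0.220 in SA, 5.17% ± 0.293 in SU and 5.10% ± 0.498 in C (SD, n = 8 each). All 20 genes of a list of hippocampal subfield markers had reads in each of the 16 libraries, and their summed level overlapped between SA (1022 to 1290 CPM) and SU (1028 to 1163 CPM). Slc6a4, the serotonin transporter gene that the genotype concerns, was at 0.187 ± 0.0659 CPM in SA, 0.109 ± 0.0604 CPM in SU and 0.119 ± 0.0763 CPM in C (SD, n = 8 each). In the libraries labelled 5-Htt+/- it was at 14.8 ± 1.23 CPM in SA and 14.9 ± 1.11 CPM in SU, far above the libraries labelled 5-Htt+/+. This is not the order of intact gene copies that the labels give. Counts per gene do not show which allele the reads came from, and the cause was not tested. Genotypes are therefore named only as the labels give them.

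Over all genes, SA and SU were not told apart by any single gene. Of 31208 genes tested, 0 (0%) were called at an adjusted p under 0.05 with edgeR's quasi-likelihood test and Benjamini-Hochberg adjustment, and the smallest adjusted p was 0.270, for Gm10801. At an unadjusted p under 0.05 there were 1218 genes (3.9%), fewer than the 1560.4 that this threshold gives when nothing differs. Of these, 711 (2.28% of all genes) were higher in SA and 507 (1.62%) were lower. With no threshold on p, 51.6% of all genes tested had a higher fitted level in SA. limma-voom and edgeR's likelihood ratio test called 0 genes as well, whereas DESeq2 called 1, Gm26870, which is described below with the libraries that carry it. Differences were small: among the 20030 genes with a mean of at least 1 CPM over the 16 libraries, fold changes had a median size of 0.0524 on the log2 scale beside a median SE of 0.0828. The genes below are described in the order of their p-values and by list, and none of them passed the adjustment over all genes.

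The choroid plexus genes were the list that stood highest in SA, and they were high in some libraries of each group rather than in SA as a whole. Ttr was at 255, 452, 535, 5.59, 34.8, 443, 9.57 and 788 CPM in SA replicates 1 to 8. In SU replicates 1 to 8 it was at 8.73, 8.39, 10.9, 4.93, 715, 8.46, 19.8 and 317 CPM. In C the lowest, median and highest values were 9.33, 19.04 and 643 CPM. The libraries thus fell into a high and a low set, with a gap between 34.8 and 226 CPM over all 48 libraries, and the groups overlapped over nearly their whole range. Taking 3 times the median of the 48 libraries (69.0 CPM) as the limit, Ttr was high in 5 of 8 SA, 2 of 8 SU and 3 of 8 C libraries.

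The mean log2 CPM of Ttr was 6.90 ± 2.83 in SA and 4.65 ± 2.70 in SU (mean and SD, n = 8 each), a difference of 2.25 with a two-sided exact permutation p of 0.123 over 12870 arrangements. In the model the log2 fold change of Ttr was 1.20 (SE 1.12, 95% interval -0.99 to 3.40, unadjusted p = 0.288). It was 2.54 without SU replicate 5, the SU library with the most Ttr (unadjusted p = 0.0393), and 0.85 without SA replicate 8, the SA library with the most. It was 2.19 with limma-voom (unadjusted p = 0.0987). In the libraries labelled 5-Htt+/- the order was turned round, with a log2 fold change of -0.63 and Ttr over the limit in 3 of 8 SA and 6 of 9 SU libraries. The difference between the genotypes did not pass the test (three-way contrast, unadjusted p = 0.244).

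**Figure D1:**
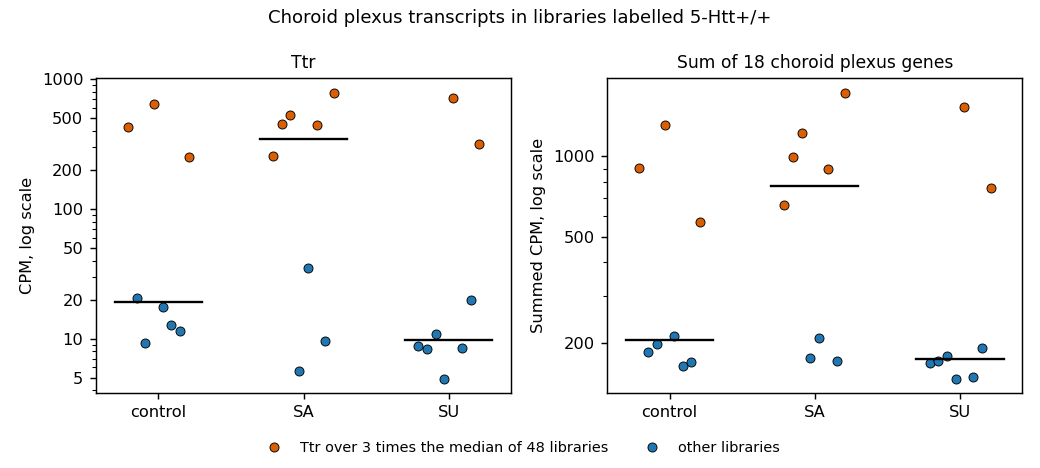
Levels of Ttr (left) and of 18 choroid plexus genes summed (right) in each library labelled 5-Htt+/+, in CPM on a log scale, for controls, SA and SU. Each point is 1 library, bars are medians, and orange marks libraries with Ttr over 3 times the median of the 48 libraries, which are 5 of 8 SA, 2 of 8 SU and 3 of 8 control libraries.

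The other choroid plexus genes followed Ttr. All 18 listed genes had reads in each of the 16 libraries, and all 18 had a higher fitted level in SA, with log2 fold changes from 0.44 to 1.20 and a median of 0.85, beside a median of 0.00 over all genes tested. None of the 18 had an unadjusted p under 0.05. Otx2, a transcription factor of choroid plexus epithelium, had the smallest p of the list, with a lowest, median and highest level of 0.250, 2.43 and 7.38 CPM in SA and 0.262, 0.633 and 4.53 CPM in SU (log2 fold change 1.17, SE 0.632, unadjusted p = 0.0695). Kcnj13, a potassium channel, was at 5.52 ± 4.06 CPM in SA and 2.96 ± 3.32 CPM in SU. Enpp2, which encodes autotaxin, was at 330 ± 209 CPM in SA and 207 ± 179 CPM in SU (mean and SD, n = 8 each). The SDs of both genes are larger than the differences between the means, and each group mixes libraries with much and with little choroid plexus RNA. In these bulk samples, more cells of a type and more RNA per cell cannot be told apart. The summed level of the list was 171 to 1736 CPM in SA (median 776), 147 to 1540 CPM in SU (median 174) and 163 to 1315 CPM in C (median 204). The median log2 fold change of the list was -0.41 in the libraries labelled 5-Htt+/-.

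With Ttr as a term the other choroid plexus genes lay near 0 and most other values stayed near where they were, whereas in the libraries of low Ttr the choroid plexus genes were still mostly higher in SA. Ttr itself is left out of the list here, since the term is its own level. The other 17 genes, all higher in SA without a term (median log2 fold change 0.84), had a median of -0.04 with the log2 CPM of Ttr of each library as a term, and 5 of the 17 were higher in SA, beside 52.9% of all genes. One of the 17, Cldn2, a tight junction claudin, had an unadjusted p under 0.05 and was lower in SA, at -0.28. The number of genes at an unadjusted p under 0.05 was 1289 with the term and 1218 without it, and 944 genes (77.5% of the 1218) were in both sets. All 1218 genes kept their sign, and the median ratio of the fold change with the term to that without it was 1.002. The 1218 were chosen without the term in the same libraries, so kept signs are likely with any term. No gene was called over all genes with the term. Leaving out the 20 libraries with high Ttr, which leaves 3 SA and 6 SU libraries, gave 1163 genes, of which 453 (37.2% of the 1218) were in the first set, and 1211 of the 1218 genes had the same sign. The 17 choroid plexus genes then had a median of 0.26, with 15 higher in SA, beside 53.3% of all genes. Tmem72, a membrane protein of choroid plexus, was the 1 with an unadjusted p under 0.05, at 0.74 (unadjusted p = 0.0358), and Otx2 was at 0.84 (unadjusted p = 0.0699). The mean log2 CPM of the 18 choroid plexus genes was 1.42 in SA replicate 5, where Ttr was at 34.8 CPM. It was 0.709 and 0.757 in SA replicates 4 and 7 and 0.311 to 0.948 in the 6 SU libraries. By this mean only SA replicate 5 stood above the SU libraries. That fit also has fewer samples, and the part of this in the smaller overlap was not tested.

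**Figure D2:**
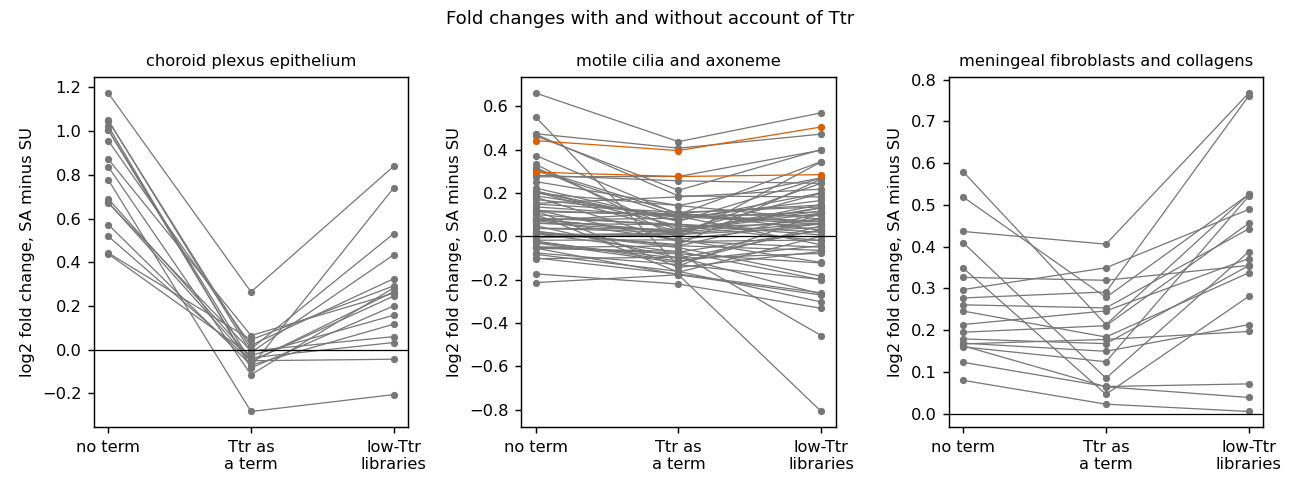
Log2 fold changes (SA minus SU, libraries labelled 5-Htt+/+) of the genes of 3 lists without a term, with the log2 CPM of Ttr as a term, and in the libraries of low Ttr only. Each line is 1 gene, Ttr itself is left out, and the orange lines are Cfap45 and Drc1: the choroid plexus genes move to about 0 with the term (median 0.84 to -0.04) and have a median of 0.26 in the libraries of low Ttr, whereas Cfap45 stays at 0.44, 0.40 and 0.51. Among the SA libraries of low Ttr, only replicate 5 stood above the SU libraries in the mean level of the choroid plexus genes.

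Of the genes of smallest p with a mean of at least 1 CPM, Cfap45 came second after Gm10801, and Drc1 followed a few places on; both belong to motile cilia. Cfap45 encodes a protein inside the microtubules of the ciliary axoneme, and Drc1 a core subunit of the nexin-dynein regulatory complex, which ties neighbouring microtubule doublets together and governs dynein. Their promoters are shown because these are the ciliary genes that lead the comparison (RefSeq, GRCm38.p6, 250 bases before to 50 after the gene start, plus strand, 5′ to 3′). Capitals mark an X-box of the form GTTGCTATGGTAAC in Cfap45 and, in Drc1, the reverse complement of the partial X-box GTTGCCA.
Cfap45, chr1:172520880-172521179: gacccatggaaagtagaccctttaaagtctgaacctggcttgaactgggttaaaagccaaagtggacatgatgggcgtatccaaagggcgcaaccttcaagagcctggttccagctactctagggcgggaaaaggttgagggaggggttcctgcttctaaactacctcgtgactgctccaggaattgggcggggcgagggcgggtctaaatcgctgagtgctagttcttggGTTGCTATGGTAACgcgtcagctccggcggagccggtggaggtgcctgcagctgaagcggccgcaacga
Drc1, chr5:30281143-30281442: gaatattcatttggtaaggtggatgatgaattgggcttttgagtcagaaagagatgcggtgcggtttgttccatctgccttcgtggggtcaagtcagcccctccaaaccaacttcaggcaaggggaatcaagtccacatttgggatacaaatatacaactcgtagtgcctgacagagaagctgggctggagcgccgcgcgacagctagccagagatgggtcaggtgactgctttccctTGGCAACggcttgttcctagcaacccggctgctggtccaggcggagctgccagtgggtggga
The motifs were searched on both strands, and they were chosen after Cfap45 and Drc1 had been seen to lead. The degenerate X-box consensus that RFX factors recognise was found in 316 of 32851 promoters of the same length (0.962%) and in 11 of the 53 ciliary genes that have a promoter in the table (20.8%). It was found in 0 of 12 choroid plexus genes with a promoter. The partial X-box was found in 4.38% of all promoters, in 13 of the 53 ciliary genes (24.5%) and in 1 of the 12 choroid plexus genes. A match describes the letters of the promoter and does not show that a factor binds there.

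Cfap45 had a lowest, median and highest level of 3.45, 3.94 and 5.04 CPM in SA, from 59 to 128 reads a library, and of 2.71, 2.90 and 3.80 CPM in SU, from 52 to 113 reads. The groups overlapped only between 3.45 and 3.80 CPM, and C lay between them at 3.56 ± 0.249 CPM (SD, n = 8). The log2 fold change of Cfap45 was 0.44 (SE 0.100, unadjusted p = 5.93e-05, edgeR adjusted p = 0.617). With Ttr as a term it was 0.40 (unadjusted p = 0.000256), and in the libraries of low Ttr it was 0.51 (unadjusted p = 0.000218). Leaving out any 1 of the 16 libraries gave values between 0.40 and 0.49. In the libraries labelled 5-Htt+/- the log2 fold change of Cfap45 was -0.07, and the three-way contrast had an unadjusted p of 0.000597 and did not pass the adjustment.

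Drc1 had a lowest, median and highest level of 9.36, 9.97 and 11.2 CPM in SA and of 6.54, 8.52 and 9.70 CPM in SU. The groups overlapped only between 9.36 and 9.70 CPM. The log2 fold change of Drc1 was 0.30 (SE 0.0818, unadjusted p = 0.000688), and the C mean, 9.83 ± 1.47 CPM (SD, n = 8), was nearer to SA. With Ttr as a term the value for Drc1 was 0.28, and in the libraries of low Ttr it was 0.29.

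The wider list of motile cilia and axoneme genes was less clear than its leading members. All 65 listed genes were tested, 48 (73.8%) had a higher fitted level in SA beside 51.6% of all genes, and 5 had an unadjusted p under 0.05, each of them higher in SA, as were 2.28% of all genes. Beside Cfap45 and Drc1 these were Dnah7b, an axonemal dynein heavy chain, Cfap161, a protein of the axoneme, and Cfap65, a protein of the central apparatus. Dnah7b was at 17.0 ± 2.59 CPM in SA and 13.98 ± 1.18 CPM in SU (mean and SD, n = 8 each). Its reads may be shared with the near-identical Dnah7a and Dnah7c. Cfap161 was at 0.693 ± 0.246 CPM in SA and 0.429 ± 0.133 CPM in SU. Cfap65 was at 6.05 ± 1.45 CPM in SA and 4.37 ± 1.35 CPM in SU, and it was named here because it completes the count of 5. The median log2 fold change of the list was 0.08, and it was 0.02 with Ttr as a term, with 38 of 65 genes higher in SA and 3 at an unadjusted p under 0.05. These 3 were Cfap45, Drc1 and Dnah7b (0.28). With that term Cfap161 was at 0.44 (unadjusted p = 0.0807) and Cfap65 at 0.21 (unadjusted p = 0.204). In the libraries of low Ttr the median was 0.07, with 45 of 65 higher. The summed level of the list overlapped between SA (574 to 657 CPM) and SU (546 to 640 CPM), and Foxj1, the master regulator of motile ciliogenesis, was at 4.99 ± 1.10 CPM in SA and 4.32 ± 1.08 CPM in SU (unadjusted p = 0.246). The median of the list in the libraries labelled 5-Htt+/- was -0.07.

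**Figure D3:**
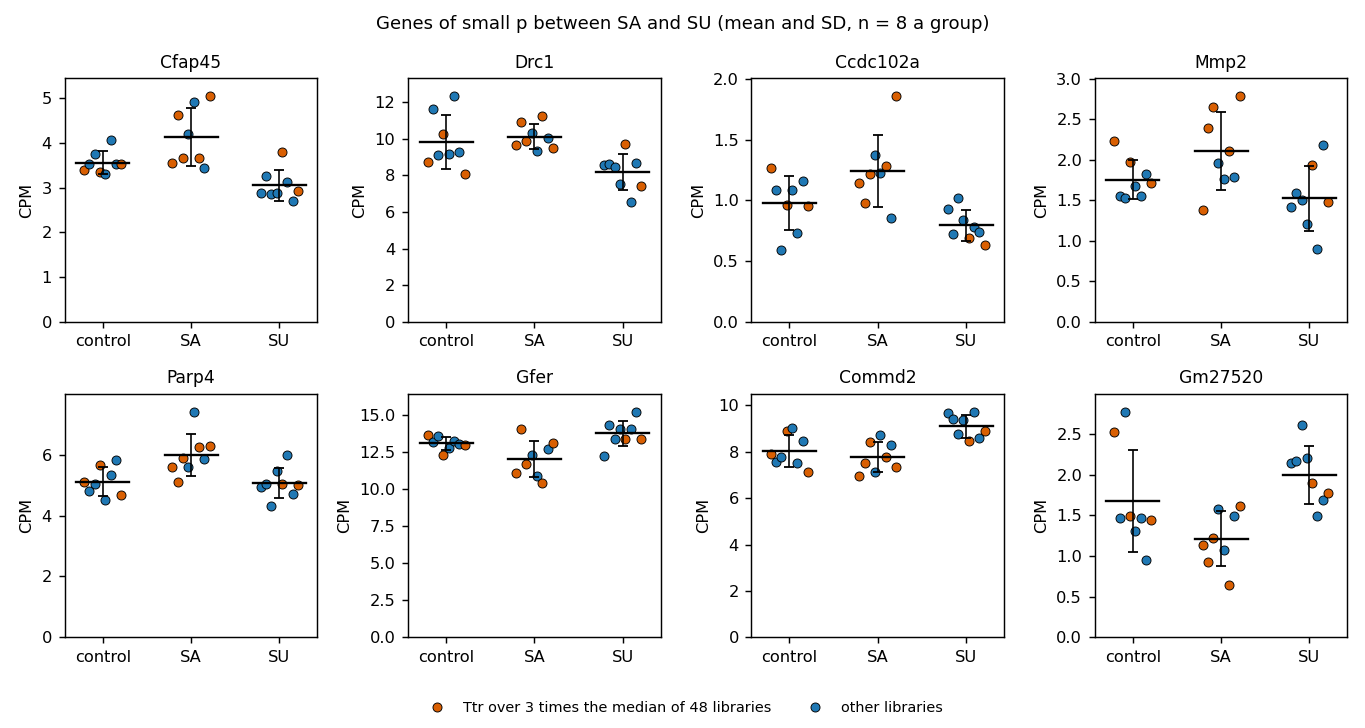
Levels in CPM of 8 genes with small p between SA and SU in each library labelled 5-Htt+/+, for controls, SA and SU. Bars and whiskers are the mean and SD of 8 libraries, and orange marks libraries of high Ttr: in each panel the SA and SU points overlap, and orange and blue points are mixed within each group.

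Among the other genes with the smallest p, those higher in SA had varied functions. Ccdc102a, a coiled-coil protein of the centrosome region, was at 1.24 ± 0.300 CPM in SA and 0.793 ± 0.127 CPM in SU (mean and SD, n = 8 each; log2 fold change 0.67, SE 0.177). The long non-coding AU022754 was at 4.36 to 5.23 CPM in SA and 3.10 to 4.51 CPM in SU, with a log2 fold change of 0.36. Parp4, the vault-associated member of the PARP family, was at 6.00 ± 0.684 CPM in SA and 5.06 ± 0.499 CPM in SU. Muc6, a secreted mucin, was at 2.68 ± 0.484 CPM in SA and 1.79 ± 0.499 CPM in SU. Each of these 4 pairs of groups overlapped. Rela, the p65 subunit of NF-kB, was at 13.1 ± 1.03 CPM in SA and 11.3 ± 1.09 CPM in SU, a log2 fold change of 0.21. Tesk2, Map4k1 and Cd82 had log2 fold changes of 0.23, 0.49 and 0.31, and the non-coding Gm28020 and Gm45169 had 0.46 and 0.43. Gm12523, annotated as antisense, was at 10.8 CPM in SA replicate 7 and had a median of 1.82 CPM in SA and 1.34 CPM in SU. Its log2 fold change of 1.20 was 0.63 without that library.

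Mmp2, a matrix metalloproteinase, and Ebf1, a transcription factor of pericytes and mesenchymal cells, are genes of vessel and meningeal tissue. Mmp2 was at 2.11 ± 0.480 CPM in SA and 1.53 ± 0.400 CPM in SU (mean and SD of 8 libraries each), with a log2 fold change of 0.43 that was 0.27 in the libraries of low Ttr (unadjusted p = 0.176). Ebf1 was at 3.60 ± 0.414 CPM in SA and 2.84 ± 0.384 CPM in SU, with a log2 fold change of 0.34 that was 0.15 in the libraries of low Ttr (unadjusted p = 0.385). The 19 listed genes of meningeal fibroblasts and collagens were all higher in SA by their fitted level, beside 51.6% of all genes, with a median log2 fold change of 0.25. Of the 19, 1 had an unadjusted p under 0.05 and was higher, as were 2.28% of all genes: Pcolce, an enhancer of procollagen processing. Pcolce was at 4.76 ± 1.37 CPM in SA and 3.29 ± 0.959 CPM in SU. The log2 fold change of Pcolce, 0.52, was 0.28 with Ttr as a term (unadjusted p = 0.103) and 0.37 without SA replicate 8 (unadjusted p = 0.0976). Among the next members, Lum had a log2 fold change of 0.33, Foxc1 0.30 and Bgn 0.25. The summed level of the list was 132 to 289 CPM in SA and 90.2 to 229 CPM in SU. Its median was 0.18 with Ttr as a term and 0.10 without SA replicate 8, when 14 of 19 genes were higher. In the libraries of low Ttr it was 0.37, and all 19 were higher, beside 53.3% of all genes. There 2 had an unadjusted p under 0.05 and were higher, as were 2.07% of all genes: Col1a1, a chain of type I collagen (0.76), and Pcolce (0.53). With the mean log2 CPM of the meningeal list as a term, the log2 fold change was 0.38 for Mmp2 and 0.32 for Ebf1.

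Genes lower in SA included 3 transcripts that 2 SU libraries carried, described further on, and 12 others. Gfer, a sulfhydryl oxidase of the mitochondrial intermembrane space, was at 12.02 ± 1.24 CPM in SA and 13.7 ± 0.863 CPM in SU (mean and SD of 8 libraries each), a log2 fold change of -0.19. Commd2, of the COMM domain family, was at 6.98 to 8.71 CPM in SA and 8.45 to 9.72 CPM in SU, a log2 fold change of -0.22. Cnrip1, which binds the cannabinoid receptor CB1, was at 53.6 ± 1.85 CPM in SA and 58.5 ± 2.35 CPM in SU, a log2 fold change of -0.13. In each of these genes the ranges overlapped in part. Gm27520, annotated as a miscellaneous RNA on the X chromosome, was at 0.643 to 1.61 CPM in SA and 1.50 to 2.61 CPM in SU, a log2 fold change of -0.71. Dclre1b, a nuclease of telomere ends, had a log2 fold change of -0.24, Plb1, a phospholipase, -0.39, Slfn9 -0.45 and Lrrn4 -0.42. The remaining genes of the rule were 9030617O03Rik (-0.20), Gm13703 (-0.26), Gm13600 (-0.30) and the chromosome 7 small nucleolar RNA Gm25098, which was at 0.593 ± 0.369 CPM in SA and 1.64 ± 0.803 CPM in SU (-1.34).

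Some of the largest fold changes among genes with a mean of at least 1 CPM came from SU replicates 3 and 6. Gm10801 was at 6.58 and 12.8 CPM in these and at 0.105 CPM or less in each of the other 14 libraries. Gm26870 was at 13.1 and 36.6 CPM in them, at 1.10 CPM in SU replicate 8 and at 0.260 CPM in SU replicate 2, and had no reads in the other 4 SU, the 8 SA or the 8 C libraries. Gm14216 was at 112 and 228 CPM in them and at 0.157 to 19.7 CPM in the other 14. Without both libraries the log2 fold change of Gm10801 was 0.042 in place of -5.97, and that of Gm14216 was 0.012 in place of -3.42. The count of genes at an unadjusted p under 0.05 was then 1054, of which 701 were among the 1218, and 27 of the 30 genes described here as having the smallest p at 1 CPM or more kept an unadjusted p under 0.05.

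**Figure D4:**
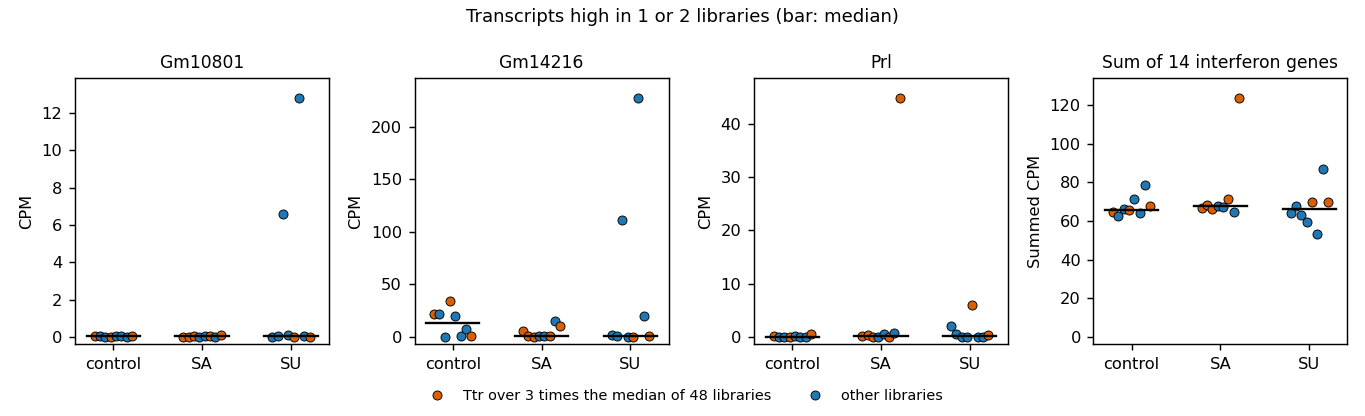
Levels of Gm10801, Gm14216 and Prl and the summed level of 14 interferon response genes, in CPM, in each library labelled 5-Htt+/+, for controls, SA and SU. Each point is 1 library, bars are medians and orange marks libraries of high Ttr: SU replicates 3 and 6 carry Gm10801 (6.58 and 12.8 CPM) and Gm14216, and SA replicate 8 carries Prl (44.9 CPM) and the highest interferon sum (124 CPM).

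Taken as a set, these 30 genes kept their direction with Ttr as a term. All 30 kept their sign and an unadjusted p under 0.05 with it, and the median ratio of the fold changes with and without the term was 0.953. The 30 were chosen by p without the term in the same libraries, so a kept sign is likely with any term. All 30 likewise kept sign and p with the meningeal list as a term. How far choroid plexus accounts for the 30 was not tested. In the libraries of low Ttr all 30 kept their sign and 21 had an unadjusted p under 0.05. The groups overlapped in all 30. The C mean lay between the SA and SU means in 27 of the 30 (90%), beside 81.5% of the 1218 genes and 36.2% of all genes tested. The 30 and the 1218 were chosen by their difference between SA and SU, and a wider gap more often holds the C mean. Nothing is therefore read from these shares. In the libraries labelled 5-Htt+/- 14 of the 30 had the same sign and 0 had an unadjusted p under 0.05 with edgeR's quasi-likelihood test. The three-way contrast had an unadjusted p under 0.05 for 21 of the 30 (70%), beside 35.1% of the 1218 genes and 3.7% of all genes tested. That contrast contains SA minus SU, by which the 30 were chosen, so nothing is read from this count.

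The groups did not overlap at all in 5 genes (0.016% of those tested). With 12870 arrangements of the 16 libraries and 31208 genes tested, a count of this order arises by chance alone, so nothing is read from it. Dmxl2, a synaptic vesicle protein that regulates the vesicular proton pump, was at 265 to 326 CPM in SA and at 333 to 360 CPM in SU (log2 fold change -0.15, unadjusted p = 0.00666). Pclo, the presynaptic scaffold Piccolo, was at 219 to 288.1 CPM in SA and just above, from 288.1 to 312 CPM, in SU (log2 fold change -0.14). Mpv17l was at 61.3 to 65.3 CPM in SA and 65.5 to 70.6 CPM in SU. The other 2 were low microRNA entries, Mir7014, higher in SA with at most 0.275 CPM, and Gm23880, lower in SA with at most 0.580 CPM. These 5 were named after their values had been seen.

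A second axis separated the SU libraries from each other. The summed level of the 17 Snord116 genes, a cluster of near-identical small nucleolar RNAs on chromosome 7 whose reads cannot be assigned to single copies with certainty, was 9.57 to 46.4 CPM in SA, with a median of 26.3 CPM. In SU it was 0 to 3.93 CPM in replicates 1, 3, 4, 7 and 8, and 34.3 to 48.9 CPM in replicates 2, 5 and 6. All SA libraries thus lay above 5 SU libraries, 6 of the 8 lay below the other 3 and 2 lay among them, and C ranged from 0.798 to 53.9 CPM with 2 libraries under 5 CPM. The second principal component, with 5.37% of the variance over the 48 libraries, was -22.6 to -2.25 in SA and -17.8 to 26.0 in SU. This contrast was chosen after its values had been seen. With the log2 of the Snord116 sum as a term, 1261 genes had an unadjusted p under 0.05 and 962 of them were among the 1218. All 30 genes of smallest p kept their sign and an unadjusted p under 0.05, and the log2 fold change of Cfap45 was 0.44. The median of the choroid plexus list was 0.58 with that term, and Ttr was at 0.77 (unadjusted p = 0.490). With the second principal component as a term Ttr was at 0.47 (unadjusted p = 0.652) and the median of the list was 0.33.

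SA replicate 8 stood apart in several lists at once. Prl, prolactin, was at 44.9 CPM in it and at 0.638 CPM or less in the other 7 SA libraries, and SU replicate 5 had the highest SU value, 6.06 CPM. Pomc, the precursor of ACTH, was at 5.57 CPM in SA replicate 8, with a median of 0.417 CPM in SA and 0.508 CPM in SU. The summed level of the 12 pituitary and pineal genes was 76.0 CPM in that library and at most 12.2 CPM in the other SA libraries. Of the 10 genes of this list that were tested, 8 were higher in SA, beside 51.6% of all genes. An unadjusted p under 0.05 was found for 4, all higher in SA, as were 2.28% of all genes. These were Crx, a photoreceptor and pineal transcription factor (1.81), Prl (2.41), Tph1, the peripheral and pineal tryptophan hydroxylase (1.19), and Pomc (0.98, all log2 fold changes). Without SA replicate 8 the list's median of 0.79 was -0.11, with 3 of 10 genes higher in SA, and Prl and Pomc were at -2.19 and -0.52. Gh, growth hormone (-2.48), and Cga, the common alpha subunit of pituitary glycoprotein hormones (-1.96), then had an unadjusted p under 0.05, both lower in SA. Gh and Cga, like Col1a1 and Gbx2, were named after their values had been seen. The median of the list was also turned in the libraries of low Ttr, at -0.15. In that fit Gh (-1.76) and Cga (-1.38) were lower in SA, with p above 0.05. Crx (2.29, unadjusted p = 0.000859) and Tph1 (1.47, unadjusted p = 0.00317) were higher in SA, as were 2.07% of all genes at an unadjusted p under 0.05. When only SA replicate 8 was left out, Crx was at 1.11 (unadjusted p = 0.0773) and Tph1 at 0.46 (unadjusted p = 0.320). The 14 interferon response genes summed to 124 CPM in that library and to 64.7 to 71.3 CPM in the other SA libraries. Their median of 0.19 was 0.03 without it, and Bst2, a membrane restriction factor and the 1 member with an unadjusted p under 0.05, was at 4.76 CPM in it and at most 2.07 CPM in the other SA libraries. Oasl2, Usp18 and Irf7 were likewise highest in SA replicate 8, at 7.59, 3.83 and 3.23 CPM.

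Lists drawn from the biology of stress and social behaviour stayed near the median of all genes. Over all genes tested, 51.6% were higher in SA and 3.9% had an unadjusted p under 0.05. Of 24 genes of the glucocorticoid response and CRH system, 14 were higher in SA, with a median log2 fold change of 0.01, and 1 had an unadjusted p under 0.05: Bcl6, a transcriptional repressor, at 42.5 ± 4.76 CPM in SA and 38.3 ± 3.02 CPM in SU (mean and SD, n = 8 each). Per1, a clock gene and glucocorticoid target, had 0.13, and Crhbp, which binds CRH, had 0.15. Of 22 serotonin genes 13 were higher in SA, with a median of 0.02, and Slc6a4 was the 1 with an unadjusted p under 0.05 (log2 fold change 0.76, SE 0.331, unadjusted p = 0.0263). Its highest level in these libraries was 0.261 CPM. Maob, a monoamine oxidase, had a log2 fold change of 0.10. Among 18 social neuropeptide genes Avpr1a, a vasopressin receptor, was at 0.187 ± 0.0623 CPM in SA and 0.0749 ± 0.0484 CPM in SU (unadjusted p = 0.0107), and Oxt, oxytocin, was at 0.0949 ± 0.102 CPM in SA and 0.197 ± 0.180 CPM in SU (unadjusted p = 0.0404). Both are at the level of a few reads a library.

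Neuronal lists had small medians of opposite sign, where 51.6% of all genes tested had a higher fitted level in SA. Of 26 immediate early genes 21 were higher in SA, with a median log2 fold change of 0.15 and 0 at an unadjusted p under 0.05 with edgeR's quasi-likelihood test. Npas4, an activity-dependent transcription factor, was at 10.5 ± 4.36 CPM in SA and 7.92 ± 3.76 CPM in SU, Trib1 had 0.24, and Dusp1, a phosphatase of MAP kinases, had 0.32. Of 36 glutamate and GABA receptor genes 28 were lower in SA, with a median of -0.07 and 0 at an unadjusted p under 0.05. Grin2a and Grin2b, NMDA receptor subunits, had log2 fold changes of -0.11 and -0.09, and Gabrb1 had -0.15. The summed levels overlapped for both lists. In the libraries labelled 5-Htt+/- these medians were -0.03 and 0.02.

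Lists of other cells and neighbouring tissue gave few genes, where 3.9% of all genes tested had an unadjusted p under 0.05. Of 16 thalamus and habenula genes 3 had an unadjusted p under 0.05, all higher in SA, as were 2.28% of all genes: Shox2 (1.53), Tnnt1 (0.52) and Synpo2 (0.18), with Tcf7l2 at 0.25. The median of the list, 0.09, was 0.24 in the libraries of low Ttr, where 5 of the 16 had an unadjusted p under 0.05, all higher in SA, as were 2.07% of all genes. These were Shox2 (2.60), Gbx2, a homeobox factor of the thalamus (2.18), Tnnt1 (0.94), Tcf7l2 (0.51) and Synpo2 (0.29), and SA replicate 7 is 1 of the 3 SA libraries in that fit. When SA replicate 7 alone was left out of the full set of libraries, Shox2 was at 0.87, Tnnt1 at 0.29 and the median at 0.03. SA replicate 7 was highest for Shox2 (1.06 CPM) and Tcf7l2 (6.64 CPM). Of 20 hippocampal subfield genes 1 had an unadjusted p under 0.05, Pcp4, at 44.4 ± 6.25 CPM in SA and 39.5 ± 4.98 CPM in SU, and Wfs1, a marker of CA1, had 0.20. Of 17 microglial genes Aif1 was the 1 with an unadjusted p under 0.05, at 2.58 ± 0.304 CPM in SA and 2.15 ± 0.272 CPM in SU (mean and SD, n = 8 each). Of 23 cell division genes Ect2, a regulator of cytokinesis, was lower in SA at -0.50. The 5 red blood cell genes were all higher in SA, beside 51.6% of all genes, with a median of 0.30 and Hba-a1 at 0.31, and no p under 0.05. No gene of the lists of mature myelin (median 0.02), oligodendrocyte precursors (0.04), astrocytes (0.01), endothelium and pericytes (0.04), interneurons (-0.03), striatum (0.01), newborn neurons (0.02), heat shock (0.05) or the mitochondrial genome (-0.04) had an unadjusted p under 0.05.

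**Figure D5:**
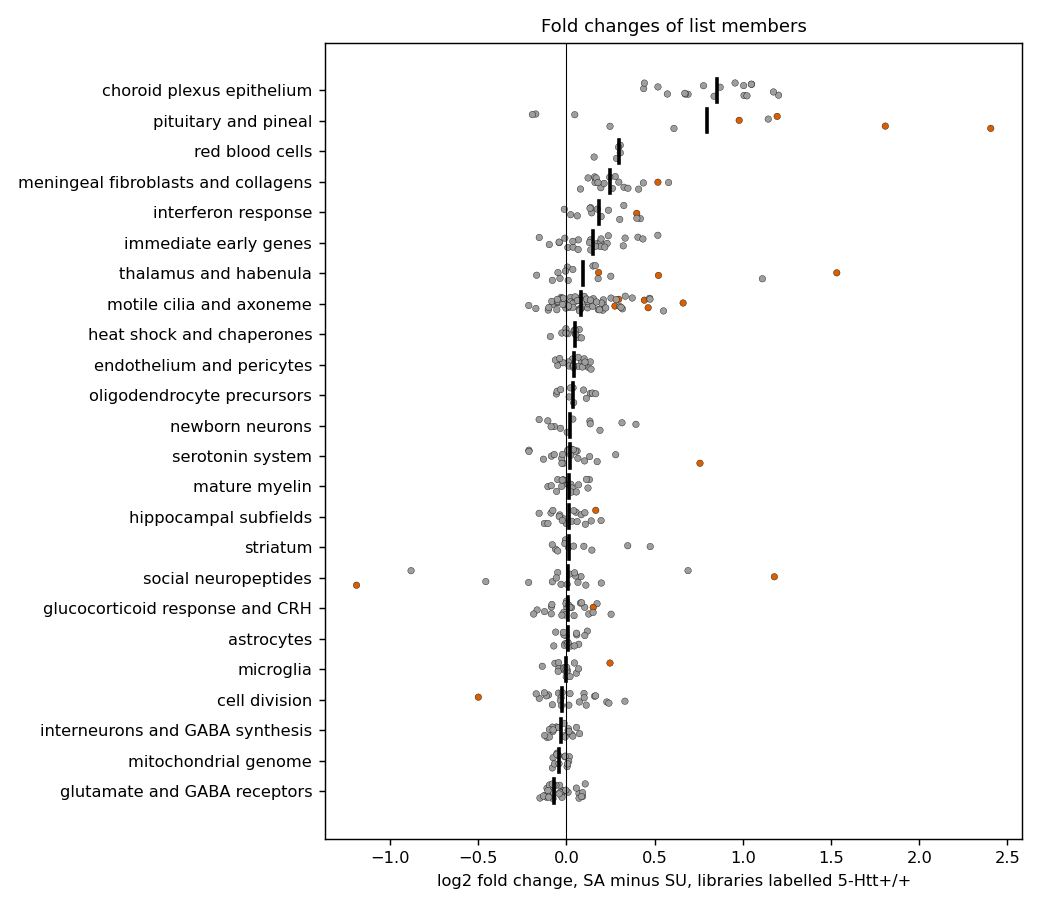
Log2 fold changes (SA minus SU, libraries labelled 5-Htt+/+) of the tested members of 24 lists, ordered by their medians. Each dot is 1 gene, bars are medians, and orange dots have an unadjusted p under 0.05: the choroid plexus (0.85) and pituitary and pineal (0.79) lists have the highest medians, and the glutamate and GABA receptor list (-0.07) the lowest.

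The study's own follow-up adjusts p-values within a set of genes, those nominally significant (unadjusted p under 0.05) by the three-way contrast, which asks whether the SA to SU difference depends on genotype. The study's set came from its own fit and was larger, and the study ties its restricted correction to the analyses that followed. Its follow-up counts are therefore not like those given here. Formed anew from the present fit, the set held 1156 genes (3.7% of those tested). The three-way contrast itself called 0 over all genes with edgeR's quasi-likelihood test. Within the set formed here 63 genes (5.45%) were called between SA and SU, 41 higher and 22 lower in SA. The set is chosen with a contrast that contains SA minus SU, so these calls are not independent of the choice. Of the 63, 40 had a mean under 0.5 CPM over the 16 libraries, 26 were protein coding, and Cfap45, Drc1 and Ccdc102a were among them. Most adjusted p-values within the set lay just under the threshold, as for Drc1 at 0.0499. With Ttr as a term 1 gene was called within the set and with the Snord116 sum as a term 0 were. All 63 kept their sign and an unadjusted p under 0.05 in both fits. The 63 were chosen by p without a term in the same libraries, so this is likely with any term and nothing is read from it. Without SA replicate 8 there were 101 calls, and without SA replicate 3 or without any of SU replicates 1, 3, 4, 6 and 7 there were 0.

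Of the 23 genes that the study named in the three-way contrast, 19 could be tested here. These genes were chosen on the same samples, so their direction is not independent evidence. The median log2 fold change of SA against SU was -0.02, with 9 higher and 10 lower. Mapk15, an atypical MAP kinase found at ciliary basal bodies, was the 1 with an unadjusted p under 0.05, at 0.688 ± 0.210 CPM in SA, 0.406 ± 0.149 CPM in SU and 0.531 ± 0.241 CPM in C (SD, n = 8 each). Its log2 fold change was 0.69 (SE 0.277, unadjusted p = 0.0164), and 0.49 with Ttr as a term (unadjusted p = 0.0606). Mapk15 had -0.55 in the libraries labelled 5-Htt+/-. Kif14, a mitotic kinesin, was at 4.89 ± 0.666 CPM in SA and 4.80 ± 0.766 CPM in SU, Otop2, a proton channel, had a log2 fold change of 0.21, and Saxo1, a microtubule stabiliser of axonemes, had 0.00 with 0.872 CPM in SA replicate 6.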

How the data were processed

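Total RNA of the hippocampus was sequenced in 48 samples, and the authors deposited 1 table of raw read counts per gene for 48440 genes, with coordinates on GRCm38. STAR, HTSeq and DESeq2 on GRCm38.p5 are given in the submitters' processing notes, but STAR, Salmon and tximport in the methods of the study, so the counter and its strand setting are not certain, and reads of overlapping or antisense genes may not be told apart. From the deposited counts, genes were kept if 3 or more libraries had 5 or more reads, libraries were scaled by the upper quartile, and 1 mean per group was fitted over all 48 libraries with the quasi-likelihood test of edgeR 4.0.16 (R 4.3.3), and p-values were adjusted by Benjamini-Hochberg across all tested genes. The SE is the fold change divided by the root of the F statistic. limma 3.58.1 and DESeq2 1.42.0 were used as alternatives, and log2 CPM has a prior count of 2. The code was tested on simulated counts.

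Named genes were the 15 higher and 15 lower genes of smallest p at a mean of at least 1 CPM (together the 30 genes of the report), the first 10 of those called within the three-way set, the 4 members of smallest p in each list, every choroid plexus gene, the genes the study named in the three-way contrast, and Slc6a4. The comparison and the lists were chosen with earlier results of these data known. Replicates within SA and SU were checked for duplicates: over 56 pairs the smallest chi-square per gene was 2.62, above sampling noise. Depth limits the precision of genes under about 1 CPM, which have few reads a library. Columns of other samples: 0. Alternatives were other tests, scalings and filters, fewer samples, each library left out, and library measures as terms.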

Additional observations from a re-analysis of the deposited data

Results flagged for a closer look

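Of 176 sets of 8 values, 36 had a lowest or highest library whose gap to the next exceeded the 95% limit of Dixon for 8 values; chance gives about 1 in 20. Most came from 2 libraries with much choroid plexus RNA, SU replicate 5 and SA replicate 8.

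SU replicate 5 was the highest SU library for Ttr (715 CPM, next 317), Otx2 (4.53), Kcnj13 (10.5), Enpp2 (612), Clic6 (23.0), Folr1 (5.50), Aqp1 (4.93), Prlr (25.9), Kcne2 (6.26), Pcolce (5.37), Prl (6.06), Tph1 (1.29) and Dusp1 (15.5 CPM). Its summed choroid plexus level was 1539.6 CPM, and the next SU library was at 761 CPM. The choroid plexus genes vary together across libraries and are not separate observations.

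SA replicate 8 was the highest SA library for Prlr (36.5), Pcolce (7.95), Prl (44.9), Pomc (5.57), Tph1 (3.79), Bst2 (4.76), Oasl2 (7.59), Usp18 (3.83) and Irf7 (3.23 CPM). Its summed levels were 289 CPM for meningeal fibroblasts and collagens, 76.0 CPM for pituitary and pineal genes and 124 CPM for interferon response genes, where the next SA libraries were at 169, 12.2 and 71.3 CPM.

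SA replicate 7 was highest for Gm12523 (10.8), Shox2 (1.06) and Tcf7l2 (6.64 CPM). SU replicate 6 was highest for Gm26870 (36.6) and Gm13703 (11.5) and lowest for Lum (1.38 CPM). SA replicate 6 was highest for Saxo1 (0.872), SA replicate 1 for Oxt (0.301) and SU replicate 2 for Crhbp (18.8 CPM), and SU replicate 4 was lowest for Tnnt1 (0.315 CPM). The causes were not tested.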

How the results depend on the processing

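No single gene passed the adjustment over all genes, whatever the scaling or filter. The count was 1 in place of 0 with only the 16 libraries compared (Gm37925, log2 fold change -4.28), with the replicate number as a block (Gm10801) and with DESeq2 with and without independent filtering (Gm26870), and leaving out 1 library gave 0 to 1. The number of genes at an unadjusted p under 0.05 was 608 with the stricter filter, which tests fewer genes, and 1889 with only the 16 libraries compared; leaving out 1 library gave 1080 to 1362. The three-way contrast called 0 genes in each fit, and 0 to 0 with 1 library left out.

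The 63 calls within the three-way set were the least stable count. There were 0 with the earlier form of the quasi-likelihood test, limma-voom, the first principal component, the mitochondrial share, the libraries of low Ttr, the Snord116 sum or without SU replicates 3 and 6. There were 1 with the stricter filter or with Ttr as a term, 2 with the robust test, the choroid plexus list or the total count as a term, 3 with DESeq2 in both forms and with the replicate block, 5 with the meningeal list as a term and 105 with no filter. Leaving out 1 library gave 0 to 101. The cause was not tested. This count and that of the three-way contrast could not be had from fits of the 16 or 24 libraries.

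With the replicate number as a block the log2 fold change of Ttr was 2.47 (unadjusted p = 0.0472), leaving out 1 library gave 0.85 to 2.54, and the other fits gave 0.47 (second principal component as a term) to 2.19 (limma-voom). The numbers do not pair the samples: deviations of same-numbered SA and SU libraries correlated at -0.127 to 0.128, and 0 of 8 SA libraries correlated best with the SU library of the same number. Beside the counts given above, the block changed no other main count by over 1.5 times.

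Of 160 genes named by the rule, Ttr apart, 31 turned sign in at least 1 of the 39 other fits, and 5 of these had an unadjusted p under 0.05 with or without the change of setting. Pomc was at -0.027 with limma-voom, -0.54 in the libraries of low Ttr, -0.49 with DESeq2 in both forms and between -0.52 and 1.16 with 1 library left out. Prl was at -0.76 with DESeq2 in both forms and between -2.19 and 3.91 with 1 library left out. Cldn2 was at -0.28 with Ttr as a term, and without SU replicates 3 and 6 Gm10801 was at 0.042 and Gm14216 at 0.012. The fits without SU replicates 3 and 6 and with the meningeal list, the Snord116 sum or the second principal component as a term were chosen after seeing the data. No value is given for Ttr itself with its own level or the choroid plexus list as a term, or in the libraries chosen by it. The 8 libraries a group and the depth limit what can be seen: at 1 CPM or more a log2 fold change had a median SE of 0.0828.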
